A study of Mus musculus with 8 samples.

Results

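The genes described here are 30 mouse genes of cholesterol synthesis, uptake, transport, export and regulation, chosen by name from the pathway out of 52636 genes in each count table. All 30 were found, and all 30 were among the 17709 genes that passed the filter on low counts and were tested. They comprise 7 enzymes of the early steps of synthesis, 11 enzymes of the late steps, 5 regulators, 4 genes of uptake and intracellular transport, and 3 genes of efflux and esterification. RNA-seq was performed on 8 samples of mouse malignant mesothelioma (cancer of the serous membranes): 6 triple knockout samples, with Nf2, Cdkn2a and Bap1 inactivated, and 2 double knockout samples, with Nf2 and Cdkn2a inactivated. The loss of Nf2 (the Hippo regulator merlin) and of Cdkn2a (cell cycle inhibitors) was thus shared by both groups, and Bap1, a histone H2A deubiquitinase, was lost in the triple samples alone. The study's title calls the mice conditional models. The labels give neither the driver of the recombinase, nor the strain or age of the mice, nor the number of mice or cultures. p-values therefore weigh the group difference against the spread between these samples only, and whether that spread is between mice or cultures is not known.

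Each sample is a separate library of 26847202 to 32082535 counts, and levels are library-size-scaled counts (CPM), adjusted by TMM factors. Double sample 1 stood apart from the other 7 samples. Its TMM factor was 0.771, against 0.994 to 1.1 in the others, and its log2 levels correlated across genes at 0.892 with double sample 2. With the triple samples it correlated at 0.804 to 0.878, while double sample 2 correlated with them at 0.903 to 0.93. The targeted genes were still counted in all samples and none was called: Bap1 averaged 58.5 ± 9.55 CPM in the triple samples (SD, n = 6) and 88.4 ± 24.3 CPM in the double samples (SD, n = 2), with adjusted p = 0.122 by edgeR. The log2 fold change of Bap1 was -0.60, and those of Nf2 and Cdkn2a, inactivated in both groups, were -0.64 and 0.87. Without double replicate 1 the values were -0.29 for Bap1, -0.31 for Nf2 and 0.24 for Cdkn2a. The lower level was thus not particular to Bap1. Exons beyond a deletion are counted too, so this is a weak check of the labels.

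The labels describe cells kept in culture medium, yet transcripts of leukocytes, endothelium, fat and skeletal muscle were counted too. The summed level of 6 adipocyte markers was 0.0663 to 49.97 CPM in the triple samples, against 579 CPM in double sample 1 and 1.41 CPM in double sample 2. The sum of 10 adult skeletal muscle markers was 131 to 14050 CPM in the triple samples, 68910 CPM in double sample 1 and 2625 CPM in double sample 2. The embryonic muscle markers had a sum of 4.41 to 134 CPM in the triple samples, against 6109 and 1979 CPM in double samples 1 and 2. In that list edgeR called 8 of 8 lower, where 5.41% of all genes were called lower, and 3 of 8 without double replicate 1, where 1.14% were. DESeq2 called 5 and limma-voom 7. The sum of 10 proliferation markers was 787 to 1112 CPM in the triple samples, 240.2 CPM in double sample 1 and 945 CPM in double sample 2. Of the 10, 0 were called by edgeR (2 higher at an unadjusted p under 0.05, and 2 by DESeq2). The log2 fold changes of all 10 were positive, with a median of 0.79. That median was 0.08 without double replicate 1 and 2.14 without double replicate 2. Of 9 mesothelial markers 8 were tested and 0 were called by edgeR, DESeq2 or limma-voom, with 2 (Pdpn and Wt1) higher at an unadjusted p under 0.05. The log2 fold changes of 5 of the 8 were positive, with a median of 1.31, and the sum was 133 to 811 CPM in the triple samples, against 345 and 1428 CPM in double samples 1 and 2. Msln was counted at 12.6 to 194 CPM in the triple samples and at 251 and 342 CPM in double samples 1 and 2. Upk3b stood at 173 CPM in triple sample 3 and at no more than 0.365 CPM in any other sample, and Calb2 was at most 0.03 CPM. Wt1 and Krt19 were likewise at 33.2 and 52.9 CPM in triple sample 3, and at no more than 1.76 and 0.734 CPM elsewhere. Lrrn4 stood at 75.4 CPM in triple sample 3 and next highest in double sample 1, at 8.30 CPM. The values of these genes therefore rest largely on triple sample 3. Krt8 and Krt18 were highest in double sample 2, at 799 and 203 CPM, and Pdpn stood at 79.0 to 204 CPM in the triple samples, against 58.5 and 83.7 CPM in double samples 1 and 2. In bulk samples such as these, fewer cells of a type and less RNA per cell cannot be told apart.

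Cholesterol is built from acetyl-CoA. The early steps yield mevalonate and then farnesyl diphosphate, which also feeds protein prenylation, and the late steps close squalene into lanosterol and trim it to cholesterol. SREBP transcription factors, held in the endoplasmic reticulum by Scap and Insig proteins while sterol is plentiful, are cleaved when sterol falls and switch on nearly all of these enzymes together. Cells can also take cholesterol up in lipoproteins and release it from lysosomes, and they dispose of a surplus by export or by esterification, in part under the liver X receptors.

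Of the 30 genes, 1 rose in the triple samples, 0 fell and 29 were not called (edgeR's quasi-likelihood test, Benjamini-Hochberg adjusted p under 0.05 over all genes tested). The gene that rose was Sc5d, a late enzyme. Across all genes tested 8.35% were called, 2.94% higher and 5.41% lower, so 1 of 30, or 3.33%, is below the background and is no result about the pathway as a group. At an unadjusted p under 0.05 the pathway had 7 genes, 6 higher and 1 lower, where all genes had 27.9%. Without double replicate 1 the pathway had 0 calls (1.69% of all genes), and without double replicate 2 it had 5 higher and 1 lower. Among all genes the first of these fits called 0.553% higher and 1.14% lower, and the second called 13.7% higher and 15.8% lower, or 29.5% in all. The second also moved the median log2 fold change of all genes to 0.15. Both fits hold a single double sample, which is assumed to vary like the triple samples. DESeq2 called 4 members higher (Acat2, Mvk, Fdps and Sc5d) and 1 lower (Mylip), against 8.52% and 10.7% of all genes, or 19.2% in all. Upper-quartile scaling gave 2 higher (Sc5d and Mvk) and 0 lower, against 2.93% and 4.51% of all genes, or 7.43% in all. limma-voom called 0 members, against 2.29% higher and 3.76% lower, or 6.04% in all.

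The log2 fold changes of the enzymes leaned to higher levels in the triple samples, though Sc5d alone passed the test. The members were chosen with earlier results of these data known, so this lean is a description and was given no test. They were positive for 14 of the 18 enzymes and 22 of the 30 genes, with medians of 0.74 and 0.49, while the median of all genes tested was 0.02 and 50.9% of them were positive. With upper-quartile scaling 25 of the 30 were positive, and under the other scalings 22. The medians were 0.63 for the 18 enzymes and 0.32 for the 30 genes without double replicate 1, where that of all genes was 0.05. In 8 of the 30 genes every triple sample was above both double samples, and in 0 every triple sample was below both. That is 26.7% of the members, where 24.1% of all genes tested were free of overlap, 12.8% with the triple samples higher. All 8 were enzymes of synthesis: Acat2, Hmgcs1, Mvk, Fdps, Lss, Nsdhl, Hsd17b7 and Sc5d.

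**Figure D1:**
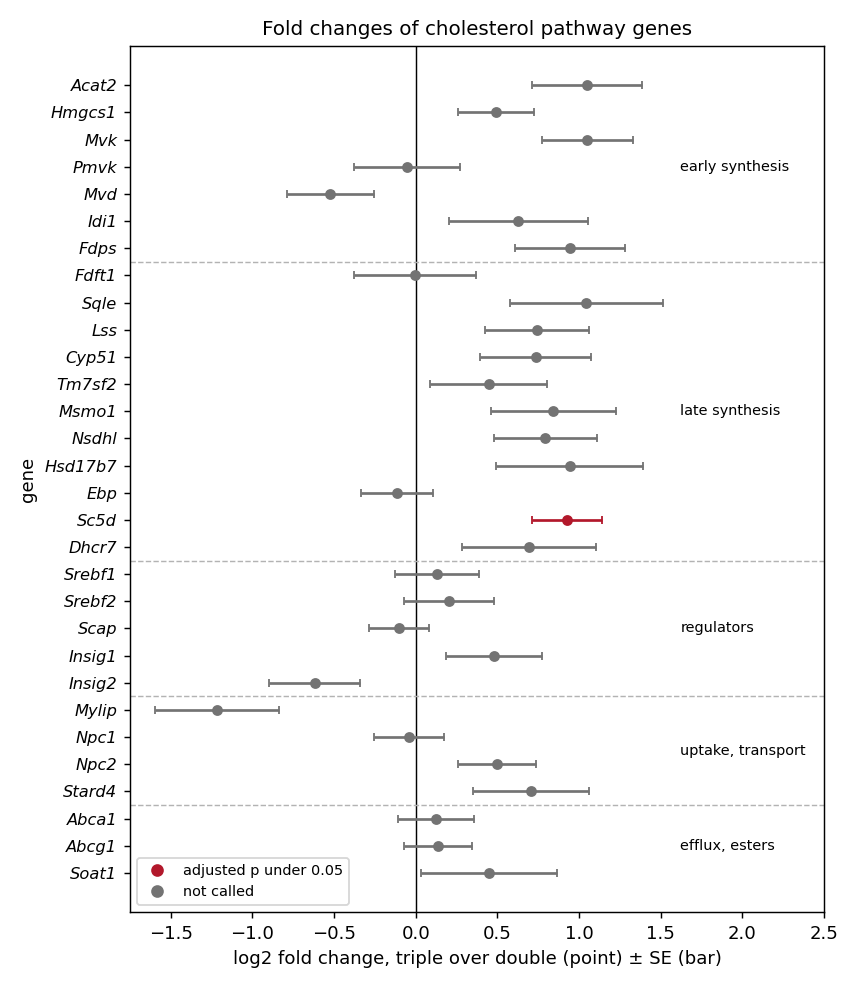
Log2 fold change of each cholesterol pathway gene, triple over double knockout (horizontal axis; point, with the standard error as a bar), by role from the early enzymes at the top to efflux and esterification at the bottom. Sc5d, in red, at 0.93, is the 1 gene called, and Mylip, at -1.22, has the lowest value.

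Among the enzymes of the early steps edgeR called 0 of 7. Their median log2 fold change was 0.63, and 3 of them (Acat2, Fdps and Mvk) were higher at an unadjusted p under 0.05. Mvk, the kinase that phosphorylates mevalonate, stood at 20.4 CPM in the lowest, 26.3 CPM in the median and 39.6 CPM in the highest triple sample, against 14.2 and 12.5 CPM in double samples 1 and 2. The groups did not overlap, and the double samples lay close to each other. Its log2 fold change was 1.05 ± 0.28 (SE), with edgeR adjusted p = 0.0534. It was 1.13 without double replicate 1 and 0.98 without double replicate 2, with adjusted p = 0.186 and 0.0832 in those edgeR fits.

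Acat2, which makes acetoacetyl-CoA at the entry to the pathway, ranged from 18.5 CPM through a median of 27.7 CPM to 44.2 CPM in the triple samples, against 16.4 and 12.4 CPM in double samples 1 and 2. Here too the groups did not overlap, although the lowest triple sample lay close to double sample 1. The log2 fold change was 1.05 ± 0.34 with edgeR adjusted p = 0.0893. Of the distinct 50-base words in Acat2 transcripts, 39.1% also occur in transcripts of Acat3, a near copy with 529 counts over the 8 samples, so reads could be split between these genes. Hmgcs1, the synthase that forms HMG-CoA, stood at 100.2 to 179.5 CPM in the triple samples, with a median of 137 CPM, against 99.2 and 93.8 CPM in double samples 1 and 2. Its lowest triple sample was almost level with double sample 1, and its log2 fold change was 0.49 ± 0.23 with edgeR adjusted p = 0.208.

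Fdps, which makes farnesyl diphosphate, averaged 7.31 ± 1.73 CPM (SD, n = 6) in the triple samples and 3.79 ± 0.15 CPM (SD, n = 2) in the double samples. Of its 50-base words 26.2% occur in other genes. Idi1, the isomerase before it, averaged 7.46 ± 2.60 CPM in the triple samples and 4.83 ± 1.499 CPM in the double samples, with 17.7% of its words shared. These low levels are therefore uncertain. Pmvk and Mvd, the phosphomevalonate kinase and the decarboxylase, lay between the others in the pathway but had negative log2 fold changes of -0.05 ± 0.32 and -0.52 ± 0.26. Mvd stood at 15.0 to 24.2 CPM in the triple samples, against 34.5 CPM in double sample 1 and 20.4 CPM in double sample 2, so that double sample 1 alone was above the triple range. The value of Mvd was -0.10 without double replicate 1 and -0.84 without double replicate 2, and that of Pmvk was 0.23 and -0.28.

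Among the 11 late enzymes Sc5d rose and 10 were not called, and their median log2 fold change was 0.74. Sc5d, the sterol desaturase near the end of the pathway, lies on chromosome 9 (42251595 to 42264256, minus strand, GRCm38). It stood at 37.4 CPM in the lowest, 48.1 CPM in the median and 58.7 CPM in the highest triple sample, against 23.1 and 27.8 CPM in double samples 1 and 2. Every triple sample was above both double samples, and the double samples were close to each other. The log2 fold change was 0.93 ± 0.21 with edgeR adjusted p = 0.0354. It was 0.79 without double replicate 1, where edgeR's adjusted p was 0.224, and 1.09 without double replicate 2, where it was 0.0221. Without triple replicate 1, 2, 3, 4 or 6 the edgeR adjusted p was 0.0623 to 0.0675, with log2 fold changes of 0.87 to 0.94, and without triple replicate 5 it was 0.0364. The limma-voom adjusted p was 0.0505, and with no filter on low counts edgeR gave 0.0549.

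Lss, Nsdhl and Hsd17b7 were the other late enzymes free of overlap. Lss closes squalene epoxide into lanosterol. It averaged 34.8 ± 10.8 CPM (SD, n = 6) in the triple samples and 20.8 ± 1.29 CPM (SD, n = 2) in the double samples, a log2 fold change of 0.74 ± 0.32. Nsdhl and Hsd17b7 work together in removing methyl groups from lanosterol. Nsdhl averaged 32.3 ± 9.38 CPM in the triple samples and 18.6 ± 2.54 CPM in the double samples, a log2 fold change of 0.79 ± 0.32. Hsd17b7 averaged 27.9 ± 14.0 CPM in the triple samples and 14.5 ± 1.498 CPM in the double samples. Its value in triple sample 4 was 54.8 CPM, and the next highest was 31.4 CPM. By edgeR the adjusted p-values of these 3 genes were 0.172, 0.148 and 0.209.

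A further set of late enzymes was low in double sample 1 while double sample 2 lay inside the triple range. Sqle, the squalene epoxidase often rate-limiting for the late steps, stood at 49.1 to 138 CPM in the triple samples, with a median of 70.1 CPM, against 26.2 CPM in double sample 1 and 53.7 CPM in double sample 2. Its log2 fold change was 1.04 ± 0.47, and 0.61 without double replicate 1. Cyp51, the lanosterol demethylase, stood at 73.8 to 131 CPM in the triple samples, against 35.7 and 77.0 CPM in double samples 1 and 2, with log2 fold changes of 0.73 over all samples and 0.28 without double replicate 1. Msmo1, a sterol methyl oxidase, gave 0.84 and then 0.36, and Dhcr7, the last reductase before cholesterol, 0.69 and then 0.13. Cyp51, Msmo1 and Dhcr7 were called higher by edgeR without double replicate 2 (adjusted p = 0.0262, 0.0339 and 0.0263), where 13.7% of all genes were called higher.

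Fdft1, Ebp and Tm7sf2 completed the late steps. Fdft1, squalene synthase, stood at 36.0 to 81.4 CPM in the triple samples, against 74.1 CPM in double sample 1 and 30.3 CPM in double sample 2. The log2 fold change was -0.01 ± 0.37, and 0.77 without double replicate 1. Its exons overlap those of the cathepsin gene Ctsb, which had 288036 counts over the 8 samples against 12220 for Fdft1, and whether the counting used strand is not given in the sources used here. Exons of Cyp51, Srebf1 and Npc1 likewise overlap those of Akap9, Rai1 and Rmc1 on the opposite strand. Ebp, a sterol isomerase, had the narrowest range of the enzymes among the triple samples. It stood at 24.4 to 31.8 CPM there, against 23.2 and 36.3 CPM in double samples 1 and 2. Tm7sf2, a sterol reductase that shares exon sequence with Vps51, stood at 4.54 to 9.85 CPM in the triple samples, against 6.40 and 4.59 CPM in double samples 1 and 2.

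**Figure D2:**
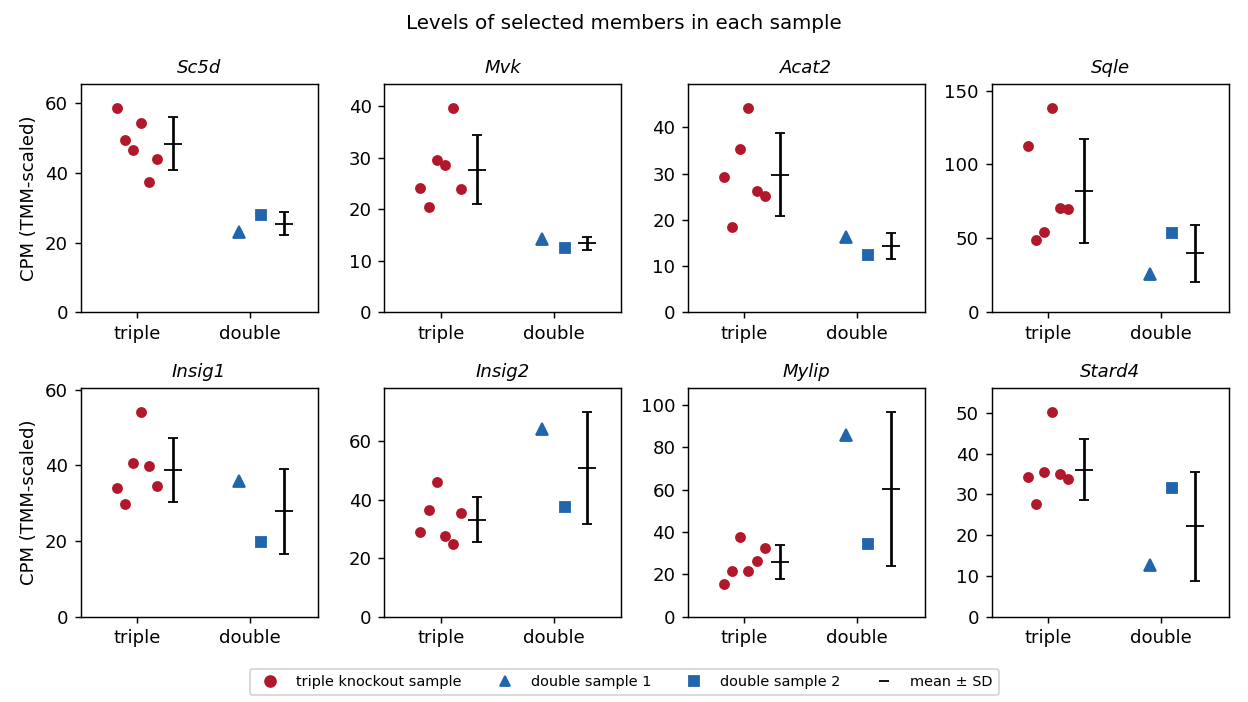
CPM of 8 members in each sample (vertical axes, from 0; triple knockout on the left, double knockout on the right of each panel), with the mean and SD of each group as a bar. Sc5d, Mvk and Acat2 show no overlap between groups, whereas Sqle, Stard4 and Mylip have double sample 1 apart and double sample 2 within the triple range.

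Promoter sequence upstream of 4 members is shown because SREBP acts through sites near the gene start, together with NF-Y and Sp1. The sequences are from RefSeq on GRCm38.p6 and run 5′ to 3′ on the strand of the gene. They end at the base before the start in RefSeq or in the files' annotation, whichever comes first. Capitals mark the sterol regulatory element core TCACNCCA, the NF-Y box CCAAT, the Sp1-type GC box GGGCGG and the E-box CACGTG, each on either strand. Sc5d is the called gene, Hmgcs1 and Srebf2 hold the sterol element core, and Insig1 is a regulator that SREBP itself switches on.
Sc5d (chr9:42264301-42264550, minus strand): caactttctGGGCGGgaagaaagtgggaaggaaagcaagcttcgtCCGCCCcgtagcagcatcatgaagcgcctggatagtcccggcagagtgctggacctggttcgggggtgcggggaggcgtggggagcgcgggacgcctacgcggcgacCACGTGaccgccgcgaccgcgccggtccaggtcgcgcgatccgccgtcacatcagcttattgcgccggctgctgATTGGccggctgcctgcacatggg
Hmgcs1 (chr13:119690101-119690350, plus strand): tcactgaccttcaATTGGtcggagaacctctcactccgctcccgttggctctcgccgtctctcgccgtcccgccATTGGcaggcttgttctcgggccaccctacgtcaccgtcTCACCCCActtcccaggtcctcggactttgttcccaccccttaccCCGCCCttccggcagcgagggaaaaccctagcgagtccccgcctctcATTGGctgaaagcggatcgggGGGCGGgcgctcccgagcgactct
Srebf2 (chr15:82147019-82147265, plus strand): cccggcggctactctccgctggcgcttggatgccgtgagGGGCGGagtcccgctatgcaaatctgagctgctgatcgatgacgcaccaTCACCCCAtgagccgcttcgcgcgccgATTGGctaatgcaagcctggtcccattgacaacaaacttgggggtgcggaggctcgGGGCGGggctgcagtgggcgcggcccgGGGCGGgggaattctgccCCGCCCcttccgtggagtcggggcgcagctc
Insig1 (chr5:28071162-28071362, plus strand): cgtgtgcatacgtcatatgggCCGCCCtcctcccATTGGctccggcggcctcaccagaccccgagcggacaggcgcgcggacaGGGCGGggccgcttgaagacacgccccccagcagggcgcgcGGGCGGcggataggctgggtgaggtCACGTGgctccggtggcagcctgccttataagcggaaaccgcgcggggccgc

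Of the 30 genes, 24 matched an entry of the promoter table by symbol. The others were Abcg1, Fdft1, Fdps, Npc1, Sqle and Stard4. Over the 250 bases before the start, 21 of the 24 held CCAAT, against 39.6% of the tested genes in the table, and 22 held GGGCGG, against 59.8%. The sterol element core was found in 3 of 24 (Hmgcs1, Msmo1 and Srebf2), against 4.13% of tested genes, and CACGTG in 6 of 24, against 9.31%. A gene with several starts counted once if any start had the letters. Sc5d, the called gene, held 2 GC boxes, 1 NF-Y box and 1 E-box, and Hmgcs1 held 3 NF-Y boxes, 2 GC boxes and 1 sterol element core. Acat2 and Mvk had like fold changes, yet Acat2 held no CCAAT and Mvk did. These matches describe the letters only.

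Of the 5 regulators 0 were called by edgeR, DESeq2 or limma-voom, and 0 had an unadjusted p under 0.05. Their median log2 fold change was 0.13, and it was -0.03 without double replicate 1 and -0.15 without double replicate 2. Srebf2, the SREBP gene chiefly tied to cholesterol synthesis, stood at 136 to 247 CPM in the triple samples, with a median of 210.0 CPM, against 143 and 199.9 CPM in double samples 1 and 2. Both double samples lay inside the triple range, and the log2 fold change was 0.20 ± 0.27 (-0.03 without double replicate 1 and 0.48 without double replicate 2). Srebf1, which is tied more to fatty acid synthesis, stood at 94.3 to 134 CPM in the triple samples, against 132 CPM in double sample 1 and 66.5 CPM in double sample 2, a log2 fold change of 0.13 ± 0.26. Without double replicate 2 it was -0.26, and without double replicate 1 it was 0.70. Scap, the SREBP escort, averaged 72.5 ± 10.6 CPM (SD, n = 6) in the triple samples and 77.8 ± 4.64 CPM (SD, n = 2) in the double samples, a log2 fold change of -0.10 ± 0.18.

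The Insig genes, whose products hold Scap in the endoplasmic reticulum, had fold changes of opposite sign. Insig1 stood at 29.8 to 54.1 CPM in the triple samples, with a median of 37.3 CPM, against 35.9 CPM in double sample 1 and 19.9 CPM in double sample 2, a log2 fold change of 0.48 ± 0.29 (edgeR adjusted p = 0.313). Insig2 stood at 24.7 to 45.9 CPM in the triple samples, with a median of 32.2 CPM, against 64.4 and 37.4 CPM in double samples 1 and 2, a log2 fold change of -0.62 ± 0.28 (edgeR adjusted p = 0.189). Double sample 1 was 1.81 times double sample 2 in Insig1 and 1.72 times in Insig2. Leaving out double replicate 1 gave 0.96 for Insig1 and -0.18 for Insig2, and leaving out double replicate 2 gave 0.13 and -0.94. Double sample 2 lay below the triple range in Insig1, and double sample 1 lay above it in Insig2. The ratio of Insig1 to Insig2, each as CPM per kilobase of exon, was 1.33, 0.918, 0.993, 2.20, 1.82 and 1.09 in triple samples 1 to 6, against 0.626 and 0.596 in double samples 1 and 2. The groups did not overlap in this ratio, which was chosen after the values were seen and was given no test.

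In uptake and intracellular transport edgeR called 0 of 4 genes, and Mylip alone had an unadjusted p under 0.05. Mylip, the ubiquitin ligase (also called Idol) that sends lipoprotein receptors for degradation and is a liver X receptor target, had the lowest log2 fold change of the 30, -1.22 ± 0.38 (edgeR adjusted p = 0.0827). It stood at 15.6 to 37.8 CPM in the triple samples, with a median of 24.1 CPM, against 85.9 CPM in double sample 1 and 34.6 CPM in double sample 2. Double sample 1 was above the triple range and double sample 2 within it. Without double replicate 1 the value was -0.42, with edgeR adjusted p = 0.721, and without double replicate 2 it was -1.71, with edgeR adjusted p = 0.014. Triple sample 2, with the highest adult muscle sum of the triple samples, had 21.7 CPM of Mylip. Its adult muscle sum was 14050 CPM against 68910 CPM in double sample 1, and its embryonic muscle sum 106 against 6109 CPM. These samples are therefore not alike in muscle RNA. The part of muscle and adipocyte RNA in the level of double sample 1 was not tested.

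Stard4, a carrier of cholesterol between membranes and an SREBP target, stood at 27.7 to 50.2 CPM in the triple samples, with a median of 34.7 CPM, against 12.6 CPM in double sample 1 and 31.7 CPM in double sample 2. Only double sample 1 lay outside the triple range, and the log2 fold change of 0.70 ± 0.35 was 0.18 without it. Npc1 and Npc2, which together pass cholesterol out of lysosomes, gave -0.04 ± 0.21 and 0.50 ± 0.24. Leaving out double replicate 1 gave 0.30 and 0.24, and leaving out double replicate 2 gave -0.30 and 0.82. Npc1 averaged 74.7 ± 10.8 CPM in the triple samples and 76.9 ± 23.2 CPM in the double samples (SD, n = 6 and 2). Npc2 averaged 509 ± 75.8 CPM in the triple samples and 361 ± 96.9 CPM in the double samples (SD, n = 6 and 2). Per kilobase of exon Npc2 had the highest level of the 30 genes, at 93.6 ± 13.9 CPM per kb in the triple samples and 66.3 ± 17.8 CPM per kb in the double samples. Hmgcs1 came next in the triple samples, at 29.5 ± 6.17 CPM per kb, and stood at 21.0 ± 0.83 CPM per kb in the double samples.

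In efflux and esterification 0 of 3 genes were called by edgeR, DESeq2 or limma-voom, and 0 had an unadjusted p under 0.05. The median log2 fold change was 0.14. Abca1 and Abcg1, cholesterol exporters under the liver X receptors that are also active in macrophages, had both double samples within the triple range. Abca1 stood at 115 to 205 CPM in the triple samples, against 146.5 and 128.5 CPM in double samples 1 and 2, a log2 fold change of 0.12 ± 0.23. Abcg1 stood at 25.6 to 38.6 CPM in the triple samples, against 26.1 and 27.4 CPM in double samples 1 and 2, a log2 fold change of 0.14 ± 0.21. The summed level of 11 macrophage and leukocyte markers was 2573 to 4244 CPM in the triple samples, 1547 CPM in double sample 1 and 3011 CPM in double sample 2. In that list edgeR called 2 of 11 higher and 0 lower, where 2.94% of all genes were called higher, and the median log2 fold change was 0.71. That median was 0.18 without double replicate 1 and 1.67 without double replicate 2, where the median of all genes was 0.05 and 0.15. Soat1, which esterifies cholesterol for storage, stood at 72.2 to 171 CPM in the triple samples, against 46.9 CPM in double sample 1 and 122 CPM in double sample 2. Its log2 fold change was 0.45 ± 0.42, and -0.09 without double replicate 1.

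**Figure D3:**
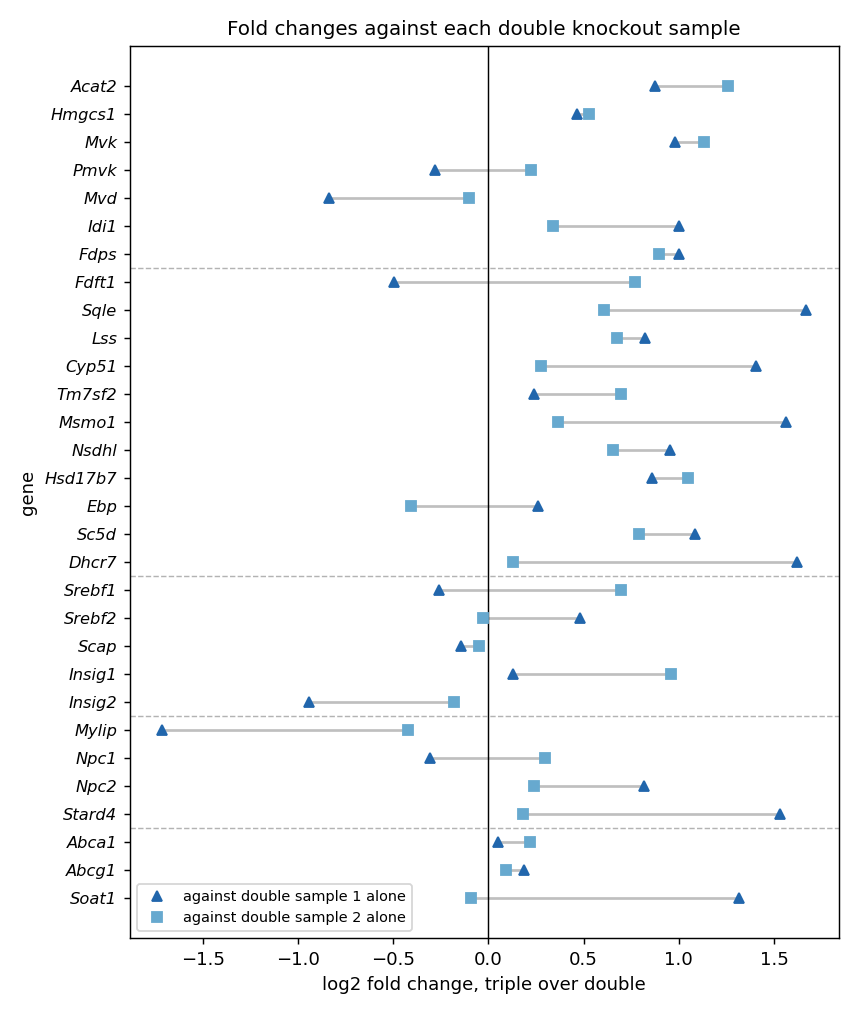
Log2 fold change of each member for the 6 triple samples against double sample 1 alone (dark triangles) or double sample 2 alone (light squares), with a line joining both values of a gene. For Sqle, Cyp51, Msmo1, Dhcr7, Stard4 and Soat1 the value against double sample 1 is far higher, for Mylip far lower, and for Mvk, Hmgcs1 and Fdps the values lie close together.

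The double samples thus differed from each other in part of the pathway. Double sample 1 was below 0.5 times double sample 2 in 6 members (Sqle, Cyp51, Msmo1, Dhcr7, Stard4 and Soat1) and above 2 times in 2 (Fdft1 and Mylip), or 26.7% of members, where 41.6% of all genes tested differed by that much. Double sample 1 was below the range of the triple samples in 17 members, within it in 10 and above it in 3. Double sample 2 was below the range in 12, within it in 17 and above it in 1. Among all genes tested double sample 1 was below that range in 35.1% and double sample 2 in 20.5%. In the 18 enzymes the counts below the range were 14 for double sample 1 and 9 for double sample 2.

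The triple samples also varied among themselves, with triple sample 4 at the top. It was the highest of the 6 triple samples in 18 of the 30 members, or 60.0%, and in 12 of the 18 enzymes, where it was the highest in 17.4% of all genes tested. With library totals in place of TMM factors the count was 17 of 30. Triple sample 2 was the lowest of the 6 in 14 of 30 members, against 15.1% of all genes tested, and in 9 of 30 with library totals, where triple sample 6 was the lowest in 11 of 30. The summed level of the 11 late enzymes was 551, 375, 465, 701, 444 and 398 CPM in triple samples 1 to 6, against 269 and 352 CPM in double samples 1 and 2. The summed level of the 7 early enzymes was 240 CPM on average in the triple samples (SD 43.9, n = 6), with 314 CPM in triple sample 4. Double samples 1 and 2 had 187.3 and 159.7 CPM. The groups overlapped in this sum, because triple sample 2, at 186.3 CPM, was just below double sample 1. In triple sample 4 the adipocyte and adult muscle sums were the lowest of all 8 samples, at 0.0663 and 131 CPM, and triple sample 2 had the highest of both among the triple samples, at 49.97 and 14050 CPM. The part of these cell types in the order of the samples was not tested.

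**Figure D4:**
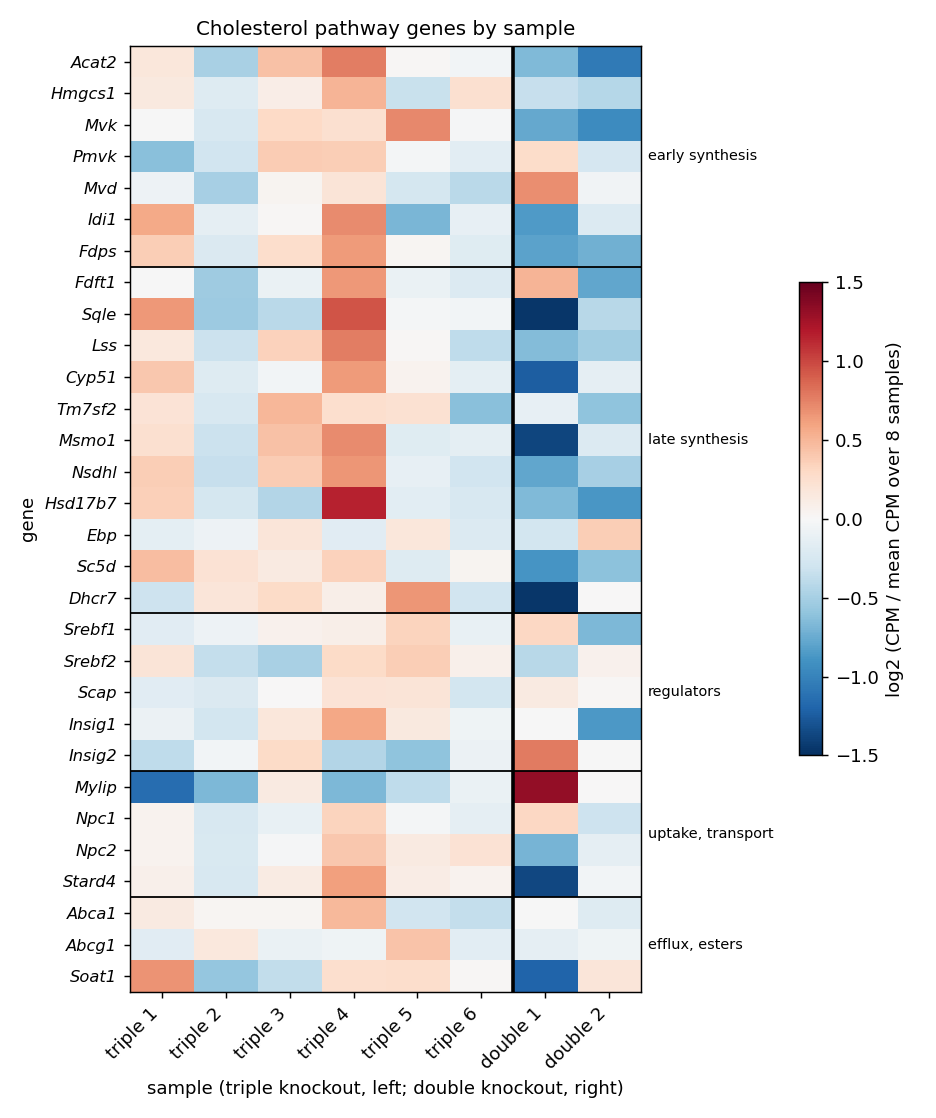
Level of each member in each sample as log2 of its CPM over its mean CPM across the 8 samples (colour; red above the mean, blue below), with triple samples left and double samples right of the thick line and the roles separated by thin lines. Triple sample 4 is the highest triple sample in 12 of 18 enzymes, and double sample 1 has the deepest blue in Sqle, Msmo1, Dhcr7, Cyp51 and Stard4 and the deepest red in Mylip.

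The widest spread among the triple samples was in Hsd17b7, where the highest sample was 3.03 times the lowest, followed by Sqle (2.82 times) and Idi1 (2.62 times). Ebp varied least among the triple samples (1.301 times), then Scap (1.40 times) and Srebf1 (1.42 times). Sc5d, the called gene, varied 1.57 times among the triple samples.

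Other lipid genes were counted in the same fit, in 7 lists of 68 genes in all. Of these 5 rose, 2 fell and 61 were not called, against 8.35% called of all genes, and the median log2 fold change was -0.11. Without double replicate 1, 0 of the 68 were called and the median was 0.04. Of 13 genes of fatty acid synthesis and desaturation 2 rose and 0 fell. Their median log2 fold change was -0.36, with 5 positive. Without double replicate 1 it was 0.87, with 12 positive, where the median of the 18 cholesterol enzymes was 0.63. Double sample 2 was below the triple range in 8 of the 13 (20.5% of all genes) and above it in 0 (20.6%). Double sample 1 was below it in 4 (35.1%) and above it in 7 (32.7%). Fads2, a desaturase of polyunsaturated fatty acids, averaged 42.8 ± 13.4 CPM in the triple samples (SD, n = 6) and 10.6 ± 0.41 CPM in the double samples (SD, n = 2), a log2 fold change of 2.02 ± 0.33 (edgeR adjusted p = 0.0122). Acly, which supplies the acetyl-CoA for both lipid pathways, averaged 289 ± 56.0 CPM in the triple samples (SD, n = 6) and 146 ± 0.34 CPM in the double samples (SD, n = 2), a log2 fold change of 0.98 ± 0.25 (edgeR adjusted p = 0.0461). Without double replicate 1 both lost their call, at 1.97 and 0.97 on the log2 scale. Acly also lost it without double replicate 2 and without each triple replicate other than 2 (edgeR adjusted p = 0.0585 to 0.0886).

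Scd1, Fasn and Acss2, chosen after their values were seen, had high levels in double sample 1. Scd1, a desaturase abundant in fat, stood at 55.8 to 287 CPM in the triple samples, against 1501 CPM in double sample 1 and 59.2 CPM in double sample 2. Fasn, fatty acid synthase, stood at 219.7 to 343 CPM in the triple samples, against 872 and 144.5 CPM in double samples 1 and 2. Acss2, which makes acetyl-CoA from acetate, stood at 3.58 to 10.3 CPM in the triple samples, against 51.2 and 2.67 CPM in double samples 1 and 2. The adipocyte marker sum was highest in double sample 1 as well, at 579 CPM, and its part in these levels was not tested. By edgeR none of these 3 genes was called (edgeR adjusted p = 0.0939, 0.279 and 0.113), with log2 fold changes of -2.61, -0.88 and -2.13. DESeq2 called Scd1 and Acss2 lower (DESeq2 adjusted p = 0.0257 and 0.0452), where it called 10.7% of all genes lower. The edgeR log2 fold changes became 1.11, 0.93 and 1.20 without double replicate 1, and -3.54, -1.64 and -3.04 without double replicate 2.

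Among 10 genes of SREBP processing and sterol-regulated degradation, 8 did not pass the test and Rnf145, a ubiquitin ligase of the endoplasmic reticulum, rose. It averaged 152 ± 25.6 CPM in the triple samples (SD, n = 6) and 75.1 ± 24.3 CPM in the double samples (SD, n = 2), a log2 fold change of 1.02 ± 0.26 (edgeR adjusted p = 0.0447). Without double replicate 1 it was at 0.72 and was not called (edgeR adjusted p = 0.293). Nor was it called without any 1 triple sample, where the edgeR adjusted p was 0.0528 to 0.0865.

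Of 10 lipoprotein receptor and lysosomal genes, Lrp8 rose and 9 did not pass the test. Lrp8, a lipoprotein and reelin receptor, stood at 26.4 to 68.2 CPM in the triple samples, against 4.66 and 8.77 CPM in double samples 1 and 2, a log2 fold change of 2.70 ± 0.52 (edgeR adjusted p = 0.0216). It kept its call without any 1 triple sample (0.0254 to 0.038) and lost it without double replicate 1 (log2 fold change 2.31, edgeR adjusted p = 0.158). Of 6 oxysterol and bile acid enzymes Cyp7b1, an oxysterol hydroxylase, rose by 2.07 ± 0.52 on the log2 scale (edgeR adjusted p = 0.0461) and 5 did not pass. It was at 2.26 without double replicate 1 (edgeR adjusted p = 0.195), and it kept its call in only 1 of the 8 fits without a sample, that without triple replicate 2. Of 7 liver X receptor genes and partners the coactivator Ncoa1 fell, by 1.08 ± 0.27 on the log2 scale (edgeR adjusted p = 0.0453), and 6 did not pass. Its value was -0.36 without double replicate 1 (edgeR adjusted p = 0.508), and it was not called without any 1 triple sample (0.0701 to 0.0868). Of 11 isoprenoid branch genes edgeR called 0, with 3 lower at an unadjusted p under 0.05 and 2 called lower by DESeq2, and Pdss2 stood at -0.71 ± 0.23. Of 11 sterol transfer genes edgeR, DESeq2 and limma-voom called 0, with 1 higher and 4 lower at an unadjusted p under 0.05, and Vapa stood at -0.51 ± 0.19 (-0.20 without double replicate 1).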

How the data were processed

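The authors deposited raw whole-number counts per gene, 1 table to a sample, beside gene coordinates. HTSeq, DESeq2, mm10 and GRCm38 are listed, with no role, per the submitters' processing notes. No source used here gives the aligner, the annotation release or the strand setting. Symbols matched 52403 of 52636 genes, and 49870 had GENCODE M21 coordinates, which are printed counted from 1 on GRCm38. Groups follow the genotype label, and replicate numbers follow accession order and pair no samples.

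edgeR 4.0.16 (R 4.3.3) compared triple with double knockout in one fit of the 8 samples, after filterByExpr and TMM scaling, with Benjamini-Hochberg adjustment over 17709 genes. Standard errors were derived from the test statistic. CPM per kilobase used the union of GENCODE exons. Shared sequence was counted as 50-base words of transcripts. The test was checked on simulated counts with far larger changes than those of the members and no outlying double sample. That check therefore does not show how well the test finds changes of the size seen here. All 30 members are named. From each other list at most 3 called genes of smallest p, or otherwise 1 gene, are named, and a gene that this rule takes is not reported here. Members and lists were chosen with earlier results of these data known. Alternatives were DESeq2 1.42.0, limma-voom (limma 3.58.1), RLE and upper-quartile scaling, other filters, the labels' description code (as a term or to subset samples), and leaving out each sample. Every member had at least 91 counts in each sample.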

Additional observations from a re-analysis of the deposited data

Results flagged for a closer look

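In the 6 triple samples, 37 sets of values (the 30 members, 5 summed levels and 2 ratios) were examined for a sample far from the rest, and chance flags about 1 in 20. In 3 genes triple sample 4 was far above the other 5: Fdft1 at 81.4 CPM, Hsd17b7 at 54.8 CPM and Stard4 at 50.2 CPM. The next highest triple samples had 51.9, 31.4 and 35.5 CPM. The sample was also the highest triple sample in 15 other members.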

How the results depend on the processing

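No paired analysis was possible because the labels give the groups no shared replicate numbers. Of 510 values (30 members under 17 alternatives), 464 kept their direction and side of the threshold, 24 in 7 genes changed sign, 12 gained a call and 10 lost one. The cause of these changes was not tested. Samples with the description code SN930 and samples with other codes were also fitted apart. Sc5d stood at 0.99 and 0.88 on the log2 scale in those fits. Calls among the 30 genes numbered 1 over all samples, 5 by DESeq2, 2 with upper-quartile scaling, and 0 by limma-voom and with no filter on low counts. Leaving out a sample gave 0 to 6. Calls over all genes were 1478, and 3380 by DESeq2, 962 with the code as a term, 1 among samples with other codes, and 315 to 5579 without a sample. Calls in the other lipid lists were 7, and 14 by DESeq2, 3 with no filter, 4 with the code as a term, 0 among other codes and 0 to 26 without a sample. Each code set holds a single double sample, so code and double sample cannot be told apart.

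The sign changed as follows. Pmvk was 0.0322 with upper-quartile scaling, 0.12 among other codes and, without a sample, -0.28 to 0.23. Fdft1 was 0.0878 with upper-quartile scaling, 0.10 by limma-voom, 0.0082 with no filter, 0.0835 with the code as a term, 0.57 among other codes and, without a sample, -0.50 to 0.77. Npc1 was 0.0419 with upper-quartile scaling, 0.21 among other codes and, without a sample, -0.30 to 0.30. Ebp was 0.24 and Srebf1 -0.17 with the code SN930, and without a sample they were -0.41 to 0.26 and -0.26 to 0.70. Among other codes Srebf2 was -0.27, Soat1 -0.19, Scd1 1.39, Fasn 0.80 and Acss2 1.48. Without a sample Srebf2 was -0.0275 to 0.48, Soat1 -0.0939 to 1.32, Scd1 -3.54 to 1.11, Fasn -1.64 to 0.93 and Acss2 -3.04 to 1.20. With library totals, the summed regulators averaged 381 CPM in the double samples (427 with TMM). Double sample 1 was then the lowest of 8 in 20 members, or 66.7% (13, or 43.3%, with TMM). Among all genes tested it was the lowest in 46.8% with library totals and 32.1% with TMM, so the share rose there too.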
